A study of Mus musculus with 16 samples.

Results

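White adipose tissue holds, between its lipid-filled adipocytes, a stroma of fibroblast-like cells from which new adipocytes form. A set of 9 markers of these cells, Pdgfra, Pdgfrb, Dpp4, Pi16, Cd55, Ly6a, Icam1, F3 and Dcn, was taken by symbol from the gene counts of iWAT, that is, inguinal white adipose tissue, a subcutaneous depot. These were 9 of 54752 gene IDs, and all 9 were among the 19736 genes with enough counts to be tested. iWAT was sequenced from 16 mice labelled female and 90 days old, in 4 genotypes on a background labelled C57BL/6 with 4 libraries each. The WT genotype has neither mutation. Lepob/+ mice have 1 ob allele of Lep, the gene of the satiety hormone leptin, in which a premature stop codon prevents a functional hormone. SOD1-G93A mice carried a multicopy human SOD1 transgene with the G93A change, a model of amyotrophic lateral sclerosis, and SOD1-G93A Lepob/+ mice carried both. The comparisons ask what the ob allele does to fat with and without the transgene, and what the transgene does with and without the ob allele.

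As background, Pdgfra and Pdgfrb encode receptors of platelet-derived growth factors, the first typical of fibroblasts and adipocyte progenitors and the second also of pericytes around small vessels. Dpp4, a cell-surface peptidase, Pi16, a secreted or anchored CAP-domain protein, and Cd55, a complement inhibitor on the membrane, mark multipotent progenitors in the connective tissue septa of the fat pad. Icam1, an adhesion molecule that binds leukocyte integrins, is used for committed preadipocytes, and F3, tissue factor, the membrane protein that starts coagulation, for a stromal population that restrains adipocyte formation. Ly6a encodes Sca-1, a surface protein of mesenchymal progenitors and also of endothelium and lymphocytes, and Dcn encodes decorin, a small collagen-binding proteoglycan made by most fibroblasts.

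The libraries held 36.8 to 61.9 M counts each (M, mega). Lymph node RNA was abundant in 6 libraries, namely WT replicates 1 and 2, Lepob/+ replicate 3 and SOD1-G93A replicates 1, 2 and 4. In these 6 the sum of 6 lymph node stroma and high endothelial venule genes was 513 to 1113 CPM, against 4.03 to 46.9 CPM in the other 10, and the sum of 8 T cell genes was 550 to 1106 against 8.21 to 26.8 CPM. CPM here are counts per mega counts (1 M) of the library after TMM scaling. None of the SOD1-G93A Lepob/+ libraries was among the 6. Lepob/+ replicate 4 held 158302 CPM of 8 skeletal muscle genes and WT replicate 3 held 3912, against 7.4 to 273 CPM elsewhere. The library labelled SOD1-G93A Lepob/+ replicate 3 had 0 counts of Xist and 1756 counts of Y chromosome genes, against 11895 to 28034 and 0 in the other 15. These are counts of a male and not of the labelled female, so that its label is in doubt, and its values are kept in the groups below unless said otherwise. The label of adipose tissue matched its transcripts, with 5 adipocyte genes, among them Adipoq and Plin1, summing to 8689 to 19700 CPM. The inguinal depot itself was not checked. Neither mutation could be checked from these counts, since human SOD1 reads have no row of their own and a premature stop codon need not change the counts of Lep.

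The stretch of 250 bases before the start site is shown for Icam1, F3, Pi16 and Dpp4 (RefSeq, GRCm38.p6, each 5′ to 3′ on the strand of its gene). These had the widest ranges between libraries of the members matched to a window. RefSeq windows were matched for 6 of the 9 members, these 4 with Pdgfra and Cd55, and not for Pdgfrb, Ly6a and Dcn. Capitals mark every match, on either strand, to the TATA box (TATAAA), the CCAAT box, the GC box (GGGCGG), the AP-1 site (TGACTCA) and an NF-kB site (GGAAATTCC), and none of the marked matches overlap.
Icam1, chr9:21015690-21015939, plus strand: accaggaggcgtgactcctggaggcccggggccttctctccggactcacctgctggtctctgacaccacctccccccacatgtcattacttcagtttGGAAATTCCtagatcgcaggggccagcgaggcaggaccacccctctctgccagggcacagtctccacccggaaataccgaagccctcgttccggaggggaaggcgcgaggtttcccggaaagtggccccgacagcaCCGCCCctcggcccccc
F3, chr3:121723287-121723536, plus strand: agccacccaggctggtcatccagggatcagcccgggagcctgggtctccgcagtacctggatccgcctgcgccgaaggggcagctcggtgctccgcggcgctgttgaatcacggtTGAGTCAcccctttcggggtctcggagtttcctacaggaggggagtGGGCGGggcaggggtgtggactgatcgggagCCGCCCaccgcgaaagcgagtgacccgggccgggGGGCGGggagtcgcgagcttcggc
Pi16, chr17:29318632-29318881, plus strand: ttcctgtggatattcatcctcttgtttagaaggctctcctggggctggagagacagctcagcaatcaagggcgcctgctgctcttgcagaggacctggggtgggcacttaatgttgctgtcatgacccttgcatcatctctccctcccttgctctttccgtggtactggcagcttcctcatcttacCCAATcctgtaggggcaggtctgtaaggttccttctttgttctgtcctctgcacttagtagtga
Dpp4, chr2:62412232-62412481, minus strand: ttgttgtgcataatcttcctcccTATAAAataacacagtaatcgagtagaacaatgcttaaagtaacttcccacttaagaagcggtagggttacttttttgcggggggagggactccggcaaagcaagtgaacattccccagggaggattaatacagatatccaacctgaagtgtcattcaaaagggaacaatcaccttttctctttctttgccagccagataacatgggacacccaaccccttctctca
The Icam1 window held GGAAATTCC, found in 0.286% of 32851 windows of this length, and 1 GC box on the opposite strand. The F3 window held 3 GC boxes, where 32.7% of windows hold at least 1, and 1 AP-1 word on the opposite strand, found in 4.46%. The Pi16 window held a CCAAT word (33.8% of windows) and no GC box, and the Dpp4 window held only a TATAAA word (12.4%), far from the start site. In the annotation used for exon lengths Pi16 spans chr17:29317680-29330593, so its RefSeq window lies inside that span and not before it. The windows also differed in base composition, with 70.0% G and C in F3, 65.2% in Icam1, 52.4% in Pi16 and 43.6% in Dpp4. These matches are letters in a window, and no binding was measured.

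Per length of all annotated exons of a gene, merged, the 9 genes spanned a wide range of levels. Median TPM, transcripts per M transcripts, over the 16 libraries were 587 for Dcn, 412 for Ly6a, 188 for Pi16, 72.5 for Pdgfrb, 58.0 for Cd55, 56.3 for Dpp4, 52.9 for F3, 32.1 for Pdgfra and 24.3 for Icam1. Ly6a was above Pi16, and Pi16 above Pdgfrb, in 16 of 16 libraries. Without the length Pi16 was above Ly6a, with medians of 469 and 193 CPM. Merged exon lengths were 6364 bases for Pi16 and 1205 for Ly6a, so the order of this pair rests on these lengths. Pdgfrb, Cd55, Dpp4 and F3 could not be put in a firm order, as Pdgfrb was above Cd55 in 11 libraries, Cd55 above Dpp4 in 10 and Dpp4 above F3 in 8. Pdgfra was above Icam1 in only 10 libraries.

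The spread between mice of 1 genotype was as large as most differences between genotypes. The highest library exceeded the lowest by 8.08 times for Pi16 and 6.14 times for Dpp4, by 3.95 for Ly6a, 3.87 for F3, 3.69 for Icam1 and 3.18 for Dcn, and by 2.77 for Cd55, 2.49 for Pdgfra and 2.18 for Pdgfrb. The pooled standard deviation within genotypes, on log2 CPM, was 0.90 for Pi16, 0.88 for Dpp4, 0.37 for Pdgfrb and 0.36 for Cd55. The range of the 4 genotype means was below this spread for Pdgfra, Dpp4, Pi16, Cd55 and Dcn, and above it for Pdgfrb, Ly6a, Icam1 and F3.

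**Figure D1:**
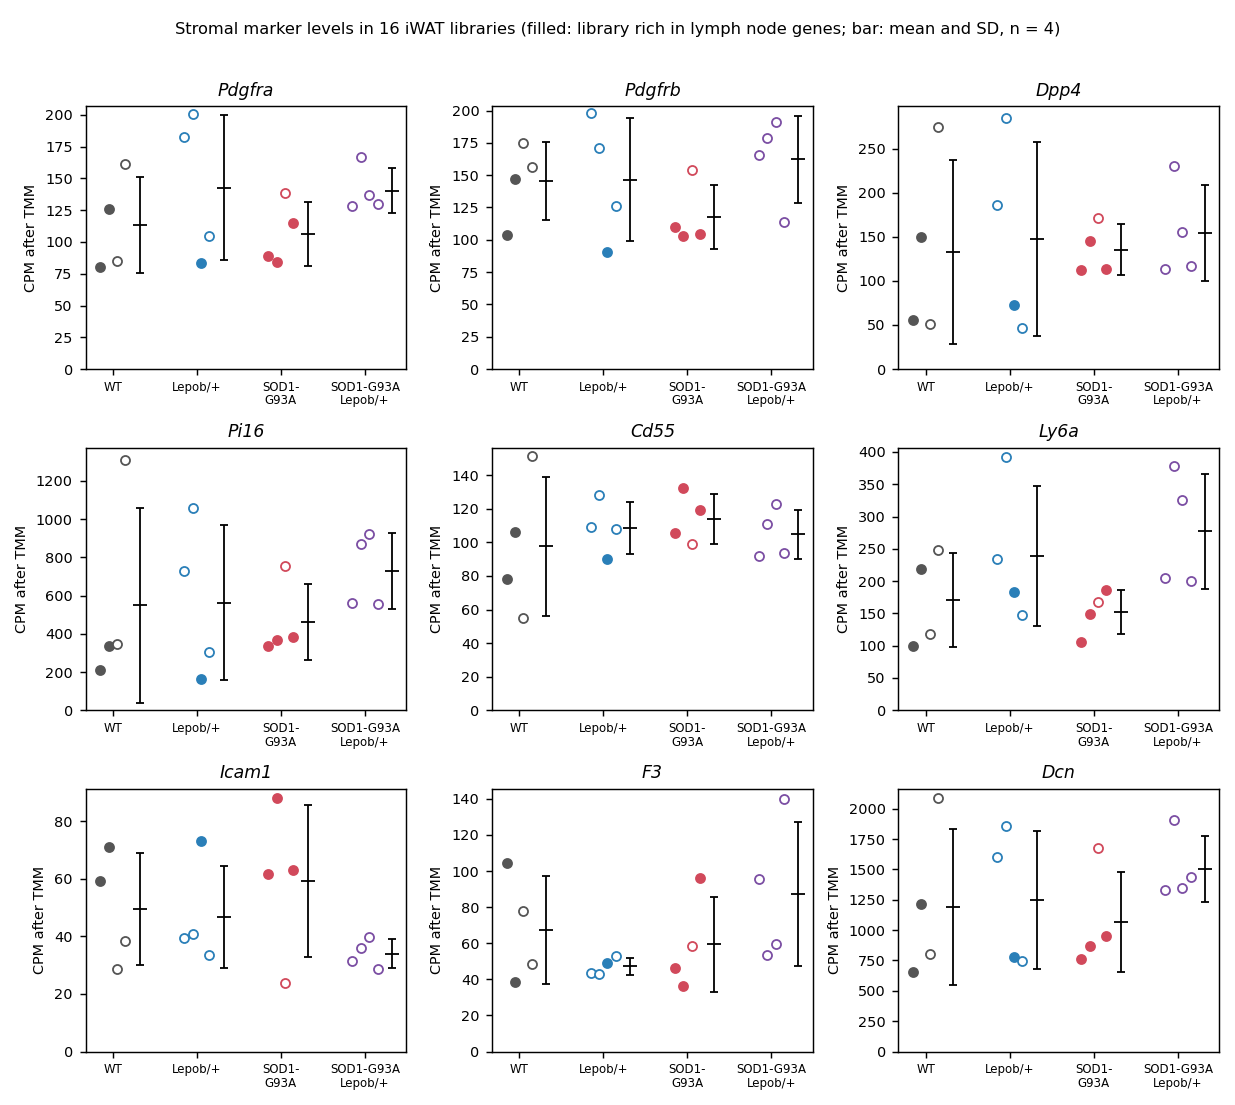
Level of each of the 9 stromal markers (CPM after TMM, linear axes from 0) in the 16 iWAT libraries, by genotype; filled points are the 6 libraries rich in lymph node genes, and the black marks are the mean and SD of 4 libraries. Ly6a in SOD1-G93A Lepob/+ lies above all SOD1-G93A libraries, F3 in SOD1-G93A Lepob/+ lies just above all Lepob/+ libraries, and every filled Icam1 point (59.4 to 88.1 CPM) lies above every open one (23.9 to 41.0 CPM).

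The 3 surface or secreted markers of septal progenitors, Dpp4, Pi16 and Cd55, overlapped between all compared genotypes. Pi16 was at 211, 334, 344 and 1311 CPM in WT replicates 1 to 4 and at 727, 1059, 162 and 307 in Lepob/+. It was at 339, 366, 756 and 382 CPM in SOD1-G93A and at 562, 872, 924 and 555 in SOD1-G93A Lepob/+. WT replicate 4 alone was higher than every other library, and the Lepob/+ libraries fell in a high and a low pair. The low pair was replicate 3, rich in lymph node RNA, and replicate 4, rich in skeletal muscle RNA. The part of this RNA in the Pi16 levels was not tested. Means were 728 ± 197 CPM in SOD1-G93A Lepob/+ and 461 ± 198 in SOD1-G93A (SD, n = 4 each), a log2 fold change of 0.66 with a standard error of 0.60 (edgeR quasi-likelihood test, adjusted p = 0.584).

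Dpp4 was at 56.0, 150, 51.4 and 274 CPM in WT, and at 186, 285, 72.4 and 46.4 in Lepob/+, where replicates 3 and 4 were again the low ones. It was at 112, 145, 172 and 113 CPM in SOD1-G93A and at 113, 231, 156 and 117 in SOD1-G93A Lepob/+. The transgenic genotypes lay inside the wide ranges of the non-transgenic ones, with log2 differences of 0.03 to 0.18 in the 4 pairwise comparisons and a standard error of 0.57 in each. Cd55 varied less, with means of 97.5 ± 41.7 CPM in WT, 109 ± 15.5 in Lepob/+, 114 ± 14.8 in SOD1-G93A and 105 ± 14.8 in SOD1-G93A Lepob/+ (SD, n = 4 each), and the genotypes overlapped throughout.

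Ly6a had the largest log2 difference of the 9 between the transgenic genotypes. It was at 106, 148, 167 and 187 CPM in SOD1-G93A and at 205, 378, 326 and 200 CPM in SOD1-G93A Lepob/+. These groups did not overlap, and Ly6a was the only member of which this was true in that comparison, where 3.58% of all tested genes lay wholly higher and 7.18% did not overlap in either direction. The log2 fold change was 0.86 with a standard error of 0.36 (unadjusted p = 0.030, adjusted p = 0.267, edgeR), so it did not pass the adjusted threshold of 0.05. DESeq2 fitted on these 8 libraries alone called it (adjusted p = 0.032), as it did 8.9% of all genes, and DESeq2 on all 16 libraries, which called 3.09% of genes, did not (adjusted p = 0.159). Without SOD1-G93A replicates 1 or 2, or SOD1-G93A Lepob/+ replicates 2 or 3, taken out singly, the unadjusted p was 0.056 to 0.095. Without SOD1-G93A Lepob/+ replicate 3, the library whose label is in doubt, the groups still did not overlap and the log2 fold change was 0.78 (unadjusted p = 0.068). It was 0.66 with a standard error of 0.43 (unadjusted p = 0.15) under the lymph node covariate described below.

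In the genotypes without the transgene Ly6a was at 99.1, 218, 118 and 248 CPM in WT and at 235, 392, 182 and 147 in Lepob/+. These overlapped, and the log2 difference was 0.48 with a standard error of 0.36 (unadjusted p = 0.195 by edgeR). The test of whether the ob allele acted differently with and without the transgene gave 0.38 with a standard error of 0.50 (adjusted p = 0.772), so a difference between both effects was not shown. Ly6a is also an endothelial gene, and the sum of 5 endothelial markers was 686 to 1072 CPM in SOD1-G93A Lepob/+ and 580 to 833 in SOD1-G93A. Their part in the Ly6a difference was not tested.

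Icam1 lay in the opposite direction. It was at 61.6, 88.1, 23.9 and 63.1 CPM in SOD1-G93A and at 31.4, 36.1, 39.9 and 28.7 CPM in SOD1-G93A Lepob/+. Of the SOD1-G93A libraries 3 were above all of the double mutant libraries and the remaining one, replicate 3, was below them, so the groups overlapped. The log2 fold change was -0.80 with a standard error of 0.37 (unadjusted p = 0.046, adjusted p = 0.298, edgeR), and 12.3% of all tested genes were lower at an unadjusted p under 0.05. The unadjusted p was 0.051 to 0.175 on leaving out any 1 of these libraries other than SOD1-G93A replicate 3, without which it was 0.005 (adjusted p = 0.085).

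Icam1 levels split in the same way as the lymph node RNA of the libraries. In WT it was at 59.4, 71.2, 28.6 and 38.6 CPM, and in Lepob/+ at 39.5, 41.0, 73.1 and 33.7 CPM. The 6 libraries rich in lymph node genes held 59.4 to 88.1 CPM and the other 10 held 23.9 to 41.0, without overlap and with medians of 67.2 and 34.9 CPM. It was the only member that did not overlap in this split, in which 11.2% of all tested genes were wholly higher and 15.5% did not overlap in either direction. The share of 1 in 9 members was thus near that of all genes. With the mean log2 CPM of the 6 lymph node genes as a covariate, the log2 difference between SOD1-G93A Lepob/+ and SOD1-G93A became 0.15 with a standard error of 0.20 (unadjusted p = 0.475, edgeR).

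The other fibroblast markers had the reverse relation to lymph node RNA, with overlap. Medians in the 6 rich and the other 10 libraries were 336 and 742 CPM for Pi16, 825 and 1520 for Dcn, 104 and 168 for Pdgfrb, and 86.6 and 138 for Pdgfra. Cd55, at 106 and 108 CPM, was nearly level. Endothelial markers were also lower in the 6, at 517 to 679 CPM against 686 to 1072, and adipocyte markers had medians of 11299 and 18194 CPM. CPM are shares of a library, and in bulk tissue fewer cells of a type cannot be told apart from less RNA per cell.

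**Figure D2:**
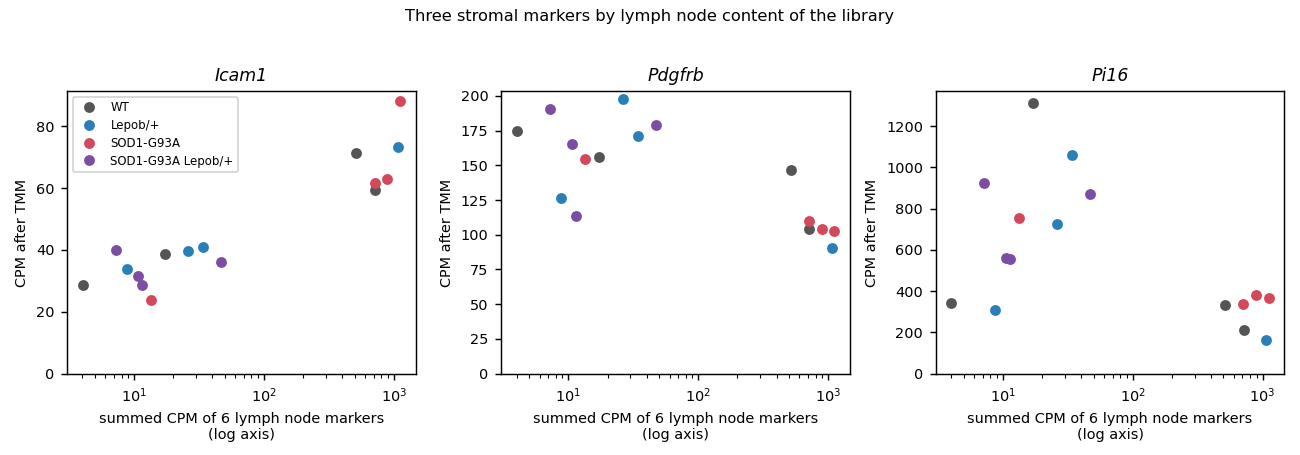
CPM after TMM of Icam1, Pdgfrb and Pi16 (linear axes from 0) against the summed CPM of 6 lymph node genes (log axis), 1 point per library, coloured by genotype. The libraries fall in 2 clouds along the horizontal axis, 10 at 4.03 to 46.9 CPM and 6 at 513 to 1113 CPM, and Icam1 is high in the second cloud while the medians of Pdgfrb and Pi16 are lower there.

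F3 had the largest log2 difference of the 9 between the genotypes with the ob allele. It was at 43.8, 43.0, 49.0 and 52.8 CPM in Lepob/+, the tightest group of any F3 measurement, and at 95.7, 53.4, 59.4 and 140 CPM in SOD1-G93A Lepob/+. The groups did not overlap, though the lowest double mutant library was barely above the highest Lepob/+ library, and 1.2% of all tested genes were wholly higher in this comparison and 2.35% did not overlap in either direction. The log2 fold change was 0.89 with a standard error of 0.37 (unadjusted p = 0.031, adjusted p = 0.602, edgeR). Without SOD1-G93A Lepob/+ replicate 4 it was 0.56 (unadjusted p = 0.145), and without Lepob/+ replicates 1 or 2 or SOD1-G93A Lepob/+ replicate 1 the unadjusted p was 0.060 to 0.065.

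F3 in the other genotypes overlapped with both, at 104, 38.5, 77.6 and 48.4 CPM in WT and 46.5, 36.2, 58.5 and 96.1 CPM in SOD1-G93A. The interaction of both mutations was 1.07 on the log2 scale with a standard error of 0.52 (unadjusted p = 0.060, adjusted p = 0.564). F3 is also made by epithelium, and the sum of 4 mammary epithelial genes was 684, 686, 294 and 971 CPM in SOD1-G93A Lepob/+ and 588, 425, 610 and 475 CPM in Lepob/+. The highest library of all 16 was the same for both F3 and these genes, SOD1-G93A Lepob/+ replicate 4. It was also the highest for the adipocyte sum (19700 CPM) and for 4 mesothelium genes (571 CPM, 2 of them at 0 counts). The part of epithelial or other RNA in the F3 difference was not tested.

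Dcn and the PDGF receptors were close to each other in pattern. Dcn was at 655, 1214, 802 and 2086 CPM in WT, at 1604, 1854, 778 and 748 in Lepob/+, at 764, 872, 1674 and 953 in SOD1-G93A and at 1327, 1903, 1346 and 1436 in SOD1-G93A Lepob/+. Pdgfra was at 88.7, 84.5, 138 and 115 CPM in SOD1-G93A and at 128, 167, 137 and 130 in SOD1-G93A Lepob/+, and Pdgfrb at 110, 103, 154 and 104 and at 165, 179, 191 and 114. For each of these genes SOD1-G93A replicate 3, the library of its genotype poor in lymph node RNA, fell within the double mutant range, while the other 3 lay below its lowest library. Log2 differences were 0.50, 0.40 and 0.46 for Dcn, Pdgfra and Pdgfrb, with standard errors of 0.39, 0.29 and 0.25 (adjusted p = 0.527, 0.489 and 0.354, edgeR). With the lymph node covariate they were 0.00, 0.04 and 0.06.

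**Figure D3:**
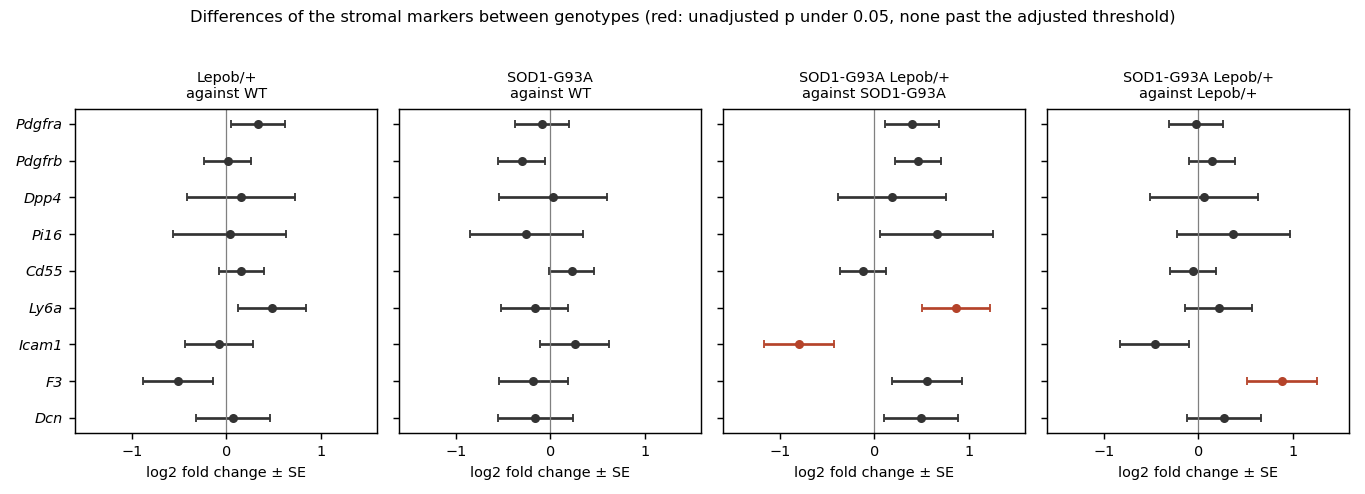
Log2 fold change of each stromal marker (points) with its standard error (bars) in the 4 pairwise comparisons of genotypes, from 1 edgeR fit of 16 libraries. Ly6a (0.86) and Icam1 (-0.80) in SOD1-G93A Lepob/+ against SOD1-G93A and F3 (0.89) in SOD1-G93A Lepob/+ against Lepob/+ have an unadjusted p under 0.05 (red), and no marker passes the adjusted threshold.

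Over the 9 members, none passed the adjusted threshold in any of the 5 comparisons by edgeR, nor did any of the 19736 genes (background 0%). The counts at an unadjusted p under 0.05 were 0 of 9 members for Lepob/+ against WT (4.37% of all genes), 0 for SOD1-G93A against WT (2.56%) and 2 for SOD1-G93A Lepob/+ against SOD1-G93A (16.5%). They were 1 for SOD1-G93A Lepob/+ against Lepob/+ (8.24%) and 0 for the interaction of both mutations (7.98%). The share of 2 in 9 in the comparison of transgenic genotypes was near the 16.5% of all genes. DESeq2 on all 16 libraries called none of the members in any comparison.

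In direction, 7 of 9 members were above 0 for Lepob/+ against WT (55.6% of all genes), 3 for SOD1-G93A against WT (53%), 7 for SOD1-G93A Lepob/+ against SOD1-G93A (50.1%) 6 for SOD1-G93A Lepob/+ against Lepob/+ (42.1%) and 7 for the interaction (42.5%). The median log2 differences of the members were 0.07, -0.16, 0.46, 0.15 and 0.38, beside medians of 0.03, 0.02, 0.00, -0.06 and -0.09 over all genes. These comparisons share libraries and the members share cells, so the counts are descriptions. No member was free of overlap for Lepob/+ against WT (0.907% of all genes) or for SOD1-G93A against WT (2.05%).

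Leaving out Lepob/+ replicate 4 and the library labelled SOD1-G93A Lepob/+ replicate 3 together gave, for SOD1-G93A Lepob/+ against SOD1-G93A, 0.78 for Ly6a (unadjusted p = 0.056) and -0.87 for Icam1 (unadjusted p = 0.055). F3 against Lepob/+ was then 1.10 (unadjusted p = 0.029, adjusted p = 0.884, edgeR).

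The markers did not vary as a single block across the 16 libraries. Likeness was measured as the root mean square difference (RMS) of log2 CPM after each gene was centred on its own mean. Of the 36 pairs, Pdgfra and Dcn were closest at 0.22, followed by Pdgfra with Pdgfrb at 0.29 and Pdgfra with Ly6a at 0.31. In between, the septal markers Dpp4 and Pi16 were 0.48 apart. Each of the 13 farthest pairs held Icam1 or F3, with 1.22 between Icam1 and Pi16, the farthest pair, and 1.13 between F3 and Dpp4. The RMS grows with the range of both genes, so pairs with Pi16 or Dpp4 start farther apart.

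**Figure D4:**
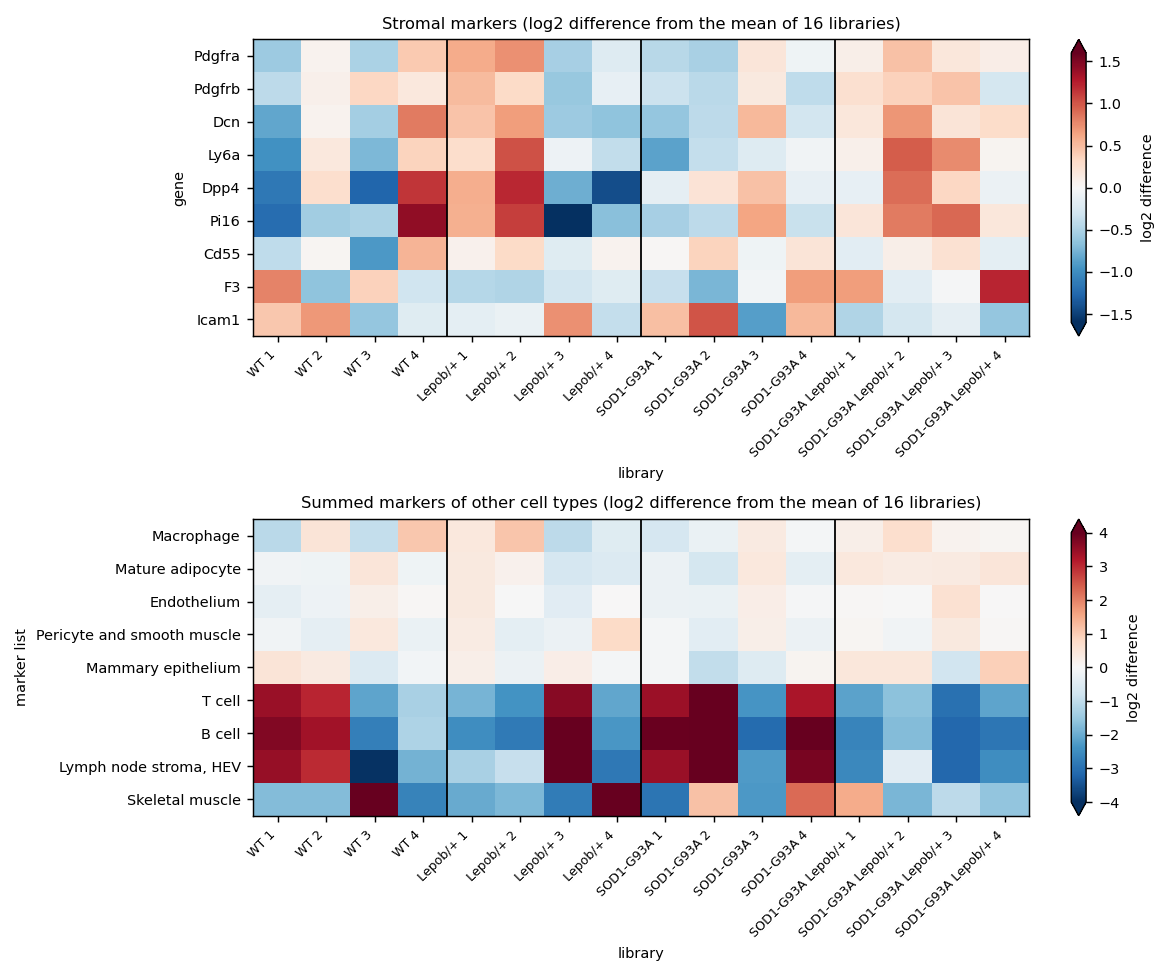
Log2 difference of each library from the mean of 16 libraries for the 9 stromal markers (top) and for the summed CPM of marker lists of other cell types (bottom, with 0.1 CPM added before the log and colours saturating at the ends of the scale), with lines between genotypes. The T cell, B cell and lymph node rows split the libraries 6 against 10, the Icam1 row follows them, and the Dcn and Dpp4 rows peak in the same 3 libraries as the macrophage row.

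The genes most like each marker, among 13088 genes with a mean of at least 4 CPM, included genes known from other cell types. The 3 nearest to Icam1 were Prim1, the primase subunit of DNA replication, at an RMS of 0.14, Csf2rb2, a cytokine receptor chain of blood cells, at 0.16, and Pold1, the catalytic subunit of DNA polymerase delta, at 0.16. Those nearest to Dpp4 were Qpct, Lrrc17 and, at 0.26, Csf1r, the macrophage growth factor receptor. Ly6a was nearest to Ninj1, Aldh3b1 and Grn, the gene of progranulin, at 0.25 to 0.27.

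For the receptors and matrix genes the neighbours included stromal genes. Pdgfrb was nearest to Cygb, the globin of fibroblasts and stellate cells, and to Kcnj8, a potassium channel subunit of pericytes, both at 0.12, and then to Tmem14a at 0.13. Pi16 was nearest to Lrrn4cl, to Fbln1, the matrix protein fibulin-1, and to Efhd1, at 0.17 to 0.19. Dcn was nearest to Man1c1 and to C1ra and C1rb, both complement C1r genes and near-identical copies whose reads may be split, at 0.13 to 0.14. Pdgfra was nearest to Lamp2, Rab31 and Slc25a24 (0.12 to 0.15), Cd55 to Sfxn3, Rap1b and Trerf1 (0.15 to 0.18) and F3 to Dus2, Tgm2 and Ctr9 (0.27 to 0.29).

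Several markers were highest in the libraries richest in macrophage RNA. The sum of 4 macrophage genes was highest in WT replicate 4 (1328 CPM), Lepob/+ replicate 2 (1361 CPM) and SOD1-G93A Lepob/+ replicate 2 (1016 CPM), and these 3 libraries were also the 3 highest for Dpp4 and for Dcn. They gave 2 of the 3 highest libraries for Pdgfra, Pi16, Cd55 and Ly6a, 1 for Pdgfrb and 0 for Icam1 and F3. All 3 were among the 10 libraries poor in lymph node RNA. The macrophage sum had a median of 774 CPM in those 10 and 463 in the 6 rich ones. By genotype the macrophage sums were 301 to 1328 CPM in WT, 306 to 1361 in Lepob/+, 398 to 808 in SOD1-G93A and 663 to 1016 in SOD1-G93A Lepob/+, and their part in the marker levels was not tested.

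Other genes of the same stromal populations and pathways were counted from lists. In SOD1-G93A Lepob/+ against SOD1-G93A, 20 of 20 fibroblast matrix genes were above 0, with a median log2 difference of 0.79, beside 50.1% and 0.00 for all genes. Of these 3 had an unadjusted p under 0.05, against 4.19% of all genes higher by that rule, and none passed the adjusted threshold. Col3a1, a chain of fibrillar collagen, was at 0.88 with a standard error of 0.40, Fbln2, fibulin-2, at 0.92 with 0.42, and Postn, periostin, at 0.77 with 0.32 (adjusted p = 0.295, 0.300 and 0.271, edgeR). DESeq2 on these 8 libraries called 7 of the 20, against 8.9% of all genes, and DESeq2 on all 16 libraries called 0 of the 20, against 3.09%. With the lymph node covariate the list's median was 0.07, with 16 of 20 above 0.

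The lists of the progenitor populations had like values, to be read against 50.1% of all genes above 0, 4.19% higher and 12.3% lower at an unadjusted p under 0.05. Of 19 genes typical of Dpp4-type interstitial progenitors, 18 were above 0 with a median of 0.57 and 0 by that unadjusted rule, the lone gene below 0 being Bst1 at -0.87. Of 16 committed preadipocyte genes, 15 were above 0 with a median of 0.49, with 3 higher and 1 lower at an unadjusted p under 0.05. This list shares Fabp4, at 0.57, with the 5 adipocyte genes. The sum of those 5 was 17557 to 19700 CPM in SOD1-G93A Lepob/+ and 8689 to 18773 in SOD1-G93A. The part of mature adipocyte RNA in this list was not tested. Cxcl14, a chemokine of preadipocytes, was at 0.67 (standard error 0.23, adjusted p = 0.261) and Ggt5 at 0.43, while Vcam1, an adhesion molecule also found on lymph node stroma, was at -0.99 (standard error 0.37, adjusted p = 0.261). Of 16 genes typical of the F3-type stroma, 14 were above 0 with a median of 0.46, with 5 higher and 1 lower by the unadjusted rule. Among these Col5a3 was at 0.84 and Adamts12 at 0.71, and Fmod, fibromodulin, was at -1.56. With the lymph node covariate the 3 medians were -0.15, -0.04 and 0.20.

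**Figure D5:**
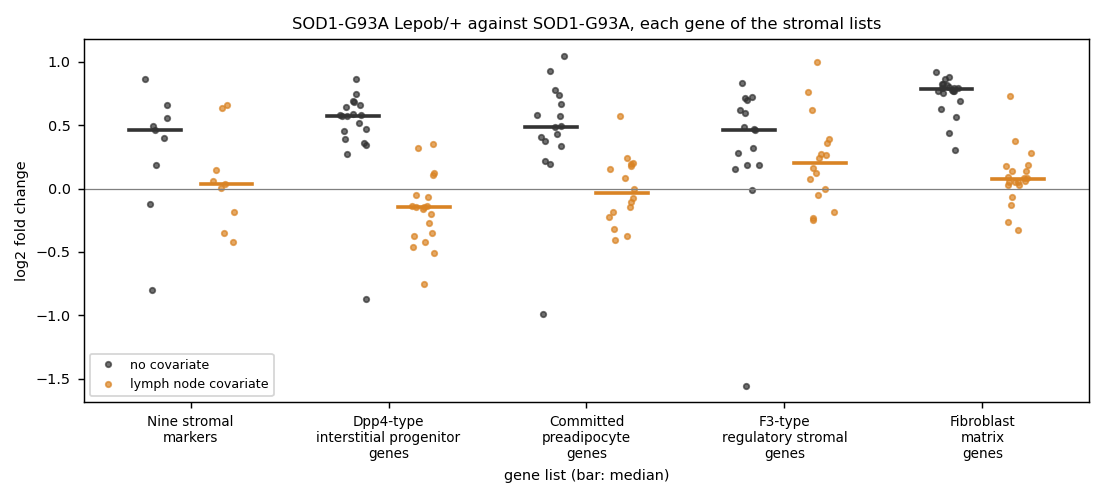
Log2 fold change of every gene (points) of the 9 stromal markers and 4 stromal gene lists in SOD1-G93A Lepob/+ against SOD1-G93A, without (dark) and with (orange) the lymph node covariate, and the median of each list (bars). The medians lie between 0.46 and 0.79 without the covariate and between -0.15 and 0.20 with it.

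In the other comparisons the fibroblast matrix list differed less or in the opposite direction. Its median was 0.05 for Lepob/+ against WT (14 of 20 above 0, beside 55.6% of all genes), -0.21 for SOD1-G93A against WT (0 of 20, beside 53%) and 0.46 for SOD1-G93A Lepob/+ against Lepob/+ (20 of 20, beside 42.1%), and none of its genes passed the adjusted threshold. With the lymph node covariate these medians were -0.19, 0.10 and 0.29. The genes of the list come from the same cells and the same libraries, so they are not independent.

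Partners of the members were listed by role, and all values here are without the lymph node covariate. They are to be read against 50.1% of all genes above 0, 4.19% higher and 12.3% lower at an unadjusted p under 0.05. Among 7 PDGF ligands and co-receptors 7 were above 0 in SOD1-G93A Lepob/+ against SOD1-G93A, with a median of 0.37 and none at an unadjusted p under 0.05, and the smallest p was that of Pdgfrl, a receptor-like protein, at 0.65 (adjusted p = 0.319). Among 10 small leucine-rich proteoglycans, the family of Dcn, 9 were above 0, with a median of 0.39. Bgn, biglycan, was at 0.47 and Prelp at 0.98, both with an unadjusted p under 0.05, and Fmod lay below 0 as above. Among 11 genes of complement control and the start of coagulation, the pathways of Cd55 and F3, 8 were above 0 with a median of 0.56, Tfpi, the tissue factor pathway inhibitor, being at 0.81 (adjusted p = 0.342) and F2r, a thrombin receptor, at -0.93 (adjusted p = 0.261).

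The integrins that bind Icam1 and related adhesion molecules lay mostly on the other side. Of 9 genes 1 was above 0, beside 50.1% of all genes, with a median of -0.94. Of these 9, 3 were lower at an unadjusted p under 0.05, against 12.3% of all genes. Itgal, the alpha chain of the lymphocyte integrin LFA-1 and thus a partner of Icam1, was at -3.17 with a standard error of 1.00 (adjusted p = 0.261, edgeR), and Icam5 at -0.94. With the lymph node covariate the median of the 9 was -0.15. Of 10 genes of the Ly6 family of Ly6a 8 were tested and 3 of these were above 0, with a median of -0.41, and Ly6c1, the gene that shares some of its sequence with Ly6a, was at 0.69 with a standard error of 0.42 (adjusted p = 0.407).

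Little of the members' sequence is shared with other genes. Of 100-base windows along the transcripts of each member, 9.67% of those of Icam1 also occurred in another gene, on either strand, as did 4.27% for Cd55, 3.30% for Pdgfra, 2.13% for Dpp4, 1.87% for Pi16, 1.45% for Ly6a and 0 for Pdgfrb, F3 and Dcn. For Icam1 the other gene was Gm47079, an antisense gene with 0 to 11 counts per library, and antisense genes that overlap the members had at most 21 counts. Icam1 spans chr9:21015985-21028817 on the plus strand, F3 chr3:121723537-121735048 on the plus strand, and Ly6a chr15:74994877-74998031 on the minus strand (GRCm38). The values are counts over all exons of a gene, so splice forms were not told apart.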

How the data were processed

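The deposited values are raw counts made by the authors, who trimmed reads with fastp, aligned them to mm10 with HISAT2 2.1.0 and assigned uniquely mapped reads to genes with featureCounts 2.0.2. The strand setting and annotation release are not given in the sources used here, and the library kit differs between paper (stranded) and labels. Of 54752 Ensembl IDs, 54723 matched a symbol.

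Counts were tested in R 4.3.3 with edgeR 4.0.16 (filterByExpr, min.count 10, min.total.count 15, TMM, robust quasi-likelihood F test) in 1 fit of 16 libraries, with Benjamini-Hochberg adjustment over 19736 genes and a threshold of 0.05. A prior count of 1 entered log2 CPM. With 36.8 to 61.9 M counts (M, mega) per library, the members had at least 1012 counts each. The procedure was tested on simulated data, drawn with the fitted trend of the spread and without differing lymph node or muscle RNA between libraries. It therefore does not show how the test behaves where libraries differ in such RNA. Nothing states that the mice were of separate litters, so p-values set a difference only against the spread between these libraries. Alternatives included DESeq2 1.42.0, a replicate block and a lymph node covariate. The covariate was the scaled mean, over 6 genes, of the log2 of each gene's CPM plus 0.1.

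The members and lists were chosen with earlier results of these data known. Genes named are the members, the 3 genes nearest each, and per list up to 3 genes with the smallest p. Adipoq, Plin1 and Xist are markers given for checks of the libraries. Fabp4 is named as a gene shared by the preadipocyte and adipocyte lists.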

Additional observations from a re-analysis of the deposited data

Results flagged for a closer look

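Within the groups of 4 libraries, 3 member values lay far from the other libraries of their genotype, with a gap to the nearest value, as a share of the group's range, above Dixon's critical value. Pi16 in WT replicate 4 was at 1311 CPM (0.879 of the range), Pi16 in SOD1-G93A replicate 3 at 756 CPM (0.896) and Pdgfrb in SOD1-G93A replicate 3 at 154 CPM (0.872). Of 36 groups tested 3 were found, and chance flags about 1 in 20. SOD1-G93A replicate 3 was the library of its genotype poor in lymph node RNA, and WT replicate 4 had the highest macrophage sum of its genotype, at 1328 CPM. The part of either in these values was not tested.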

How the results depend on the processing

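By edgeR no gene and no member passed the adjusted threshold in any comparison, with 862, 505, 3261, 1626 and 1574 genes at an unadjusted p under 0.05 in the order below. DESeq2 on all libraries called 1 gene in Lepob/+ against WT, 2 in SOD1-G93A against WT, 595 in SOD1-G93A Lepob/+ against SOD1-G93A, 77 in SOD1-G93A Lepob/+ against Lepob/+ and 46 in the interaction. DESeq2 on the compared genotypes called 4, 13, 1546 and 34, among them 1 member, Ly6a. Without Lepob/+ replicate 4 and the library labelled SOD1-G93A Lepob/+ replicate 3 together, edgeR called 2 genes in each of the comparisons of SOD1-G93A Lepob/+. Leaving out each library in turn gave 0 to 1 genes for SOD1-G93A against WT (1 without SOD1-G93A replicate 4), 0 to 3 against SOD1-G93A (3 without SOD1-G93A Lepob/+ replicate 3), 0 to 2 against Lepob/+ and 0 to 2 for the interaction, with no member among them.

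Of the 306 member values under the other alternatives 23 changed sign, and the cause was not tested. With the lymph node covariate Lepob/+ against WT became -0.11 for Pdgfrb, -0.010 for Dpp4, -0.23 for Pi16, 0.13 for Icam1 and -0.074 for Dcn. SOD1-G93A against WT became 0.038 for Pdgfra, 0.32 for Pi16, -0.10 for Icam1 and 0.023 for Dcn. SOD1-G93A Lepob/+ against SOD1-G93A became -0.35 for Dpp4, -0.42 for Pi16 and 0.15 for Icam1, and against Lepob/+ -0.073 for Dpp4. The interaction became -0.17 for Pdgfra, -0.34 for Dpp4, -0.20 for Pi16 and 0.013 for Icam1. The covariate and genotype are partly confounded, since 3 of 4 SOD1-G93A and 0 of 4 SOD1-G93A Lepob/+ libraries were rich in lymph node genes. Without the 2 libraries named above, Icam1 became 0.037 in Lepob/+ against WT, Dpp4 -0.23 and Ly6a -0.040 in SOD1-G93A Lepob/+ against Lepob/+, and the interaction -0.027 for Pdgfra and -0.25 for Dpp4.

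The replicate numbers did not pair the libraries. Residuals of like-numbered libraries correlated above 0.1 in 5 of 24 pairs and under -0.1 in 8, and 1 of 16 libraries correlated best with its own number. With the number as a replicate block edgeR again called 0 genes, with 2692 at an unadjusted p under 0.05 in SOD1-G93A Lepob/+ against SOD1-G93A. Ly6a was then at 0.84 (unadjusted p = 0.023), Icam1 at -0.76 (unadjusted p = 0.073), and the interaction of Dpp4 became -0.037.

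Leaving out each library in turn turned the sign of 54 of 432 member values, in 21 of 45 results. The range was -0.17 to 0.17 for Pdgfrb, -0.39 to 0.76 for Dpp4, -0.46 to 0.90 for Pi16, -0.039 to 0.43 for Cd55, -0.39 to 0.15 for Icam1 and -0.19 to 0.46 for Dcn in Lepob/+ against WT. The range was -0.26 to 0.11 for Pdgfra, -0.24 to 0.64 for Dpp4, -0.61 to 0.61 for Pi16, -0.37 to 0.047 for Ly6a, -0.0085 to 0.50 for Icam1, -0.53 to 0.10 for F3 and -0.48 to 0.24 for Dcn in SOD1-G93A against WT. The range was -0.077 to 0.33 for Dpp4 in SOD1-G93A Lepob/+ against SOD1-G93A. The range was -0.20 to 0.18 for Pdgfra, -0.019 to 0.33 for Pdgfrb, -0.23 to 0.60 for Dpp4 and -0.14 to 0.034 for Cd55 in SOD1-G93A Lepob/+ against Lepob/+. The range was -0.13 to 0.27 for Pdgfra, -0.57 to 0.57 for Dpp4 and -0.24 to 1.12 for Pi16 in the interaction.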
